A study of Homo sapiens with 4 samples.

Results

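Long intergenic non-coding RNA genes with a LINC symbol were examined in human embryonic stem cells (hESCs) of the naïve and the primed state. A gene was taken when the annotation called it a lncRNA and its symbol was LINC followed by digits, and 2 such genes were left out by the rule. Of 62218 annotated genes with a transcript in the count files, 2254 met the rule, with 12791 transcripts between them. The value of a gene was the count of its transcript with the largest mean count over the 4 libraries. Of the 2254 genes, 152 had a span that overlapped a protein-coding gene, and the other 2102 overlapped none.

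LINC genes are named by a symbol scheme for long RNAs that lie between protein-coding genes and have no other name. They are transcribed by RNA polymerase II, and their RNAs are usually spliced, polyadenylated, low in level and more restricted to particular cell types than messenger RNAs. Some act in the nucleus on nearby genes, some carry a microRNA or a small nucleolar RNA (snoRNA) in their introns, and most have no described role.

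The 4 libraries were Nanopore cDNA of total RNA from H1, an established hESC line, wild type in all of them, with 2 naïve and 2 primed libraries. Primed hESCs resemble the epiblast after implantation and naïve hESCs the epiblast before it. The primed cells grew in mTeSR on Matrigel at normal oxygen. The naïve cells were derived from H1 primed cells by a switch to the naïve medium that the labels call FINE, with Dasatinib, AZD5438, SB590885, PD0325901, Y-27632, LIF, Activin A and bFGF, in a low-oxygen incubator. Medium, oxygen and state changed together, so they cannot be told apart. Nothing in the labels says that the 2 libraries of a state came from separate cultures, and the p-values then measure only the spread between these libraries, which may be technical.

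The summed counts over all transcripts ran from 129276054 to 161548901 per library, and the gene values summed to 23542387 to 30978752. LINC genes without protein-coding overlap held 0.790% to 0.968% of that sum in each library. Of the naïve markers KLF17, DPPA5, DPPA3, DNMT3L, TFCP2L1, SUSD2, ARGFX and KLF4, 8 of 8 were lower in the primed libraries, although KLF17 went the other way with library sizes in place of TMM. All 8 primed markers listed, among them ZIC2, SFRP2 and THY1, were higher there. The naïve libraries also held transcripts of trophoblast markers. The summed level of 12 trophoblast markers was 2194 and 2505 CPM in them against 7.06 and 6.68 CPM in the primed libraries. CGA made up most of the naïve sum, at 1548 and 1862 CPM, while CDX2 was at 0.130 and 0.157 CPM there. Of the 11 tested 10 were lower in primed, KRT7 was not called, and VGLL1 was at 0 in both primed libraries. The 4 fibroblast markers summed to 3.16 and 1.88 CPM in naïve against 33.6 and 39.8 CPM in primed, of which COL1A1 made up most, while DCN had at most 1 count in any library. The part of these cells or transcripts in the LINC results was not tested. CPM are gene values scaled by the TMM-adjusted library size, and fewer cells of a type and less RNA per cell cannot be told apart in such bulk libraries.

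The start regions of a few LINC genes that changed most are shown first, as examples of the sequences at these loci. RefSeq promoters (GRCh38.p14, 250 bases before to 50 after the annotated start) were matched to 1495 of the LINC genes. The regions of 2 genes higher in primed and 2 higher in naïve are printed 5′ to 3′ along the gene, with motif matches on either strand in capitals. LINC01487 lies at chr3:155240695-155240994 (+ strand) and LINC02700 at chr11:94637793-94638092 (+ strand), and both were higher in primed. LINC02802 lies at chr1:144250248-144250547 (- strand) and LINC00842 at chr10:46398112-46398411 (+ strand), and both were higher in naïve.
LINC01487: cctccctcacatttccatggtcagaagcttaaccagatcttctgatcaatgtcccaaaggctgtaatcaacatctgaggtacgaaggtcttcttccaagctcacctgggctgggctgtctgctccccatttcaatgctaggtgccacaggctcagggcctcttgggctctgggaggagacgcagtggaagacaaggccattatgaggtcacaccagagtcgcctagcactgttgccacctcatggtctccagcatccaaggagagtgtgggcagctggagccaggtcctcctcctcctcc
LINC02700: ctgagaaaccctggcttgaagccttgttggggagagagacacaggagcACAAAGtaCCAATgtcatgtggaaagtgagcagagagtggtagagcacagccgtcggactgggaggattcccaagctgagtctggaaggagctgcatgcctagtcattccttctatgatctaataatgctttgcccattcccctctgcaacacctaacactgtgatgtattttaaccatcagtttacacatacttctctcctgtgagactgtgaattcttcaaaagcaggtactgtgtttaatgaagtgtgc
LINC02802: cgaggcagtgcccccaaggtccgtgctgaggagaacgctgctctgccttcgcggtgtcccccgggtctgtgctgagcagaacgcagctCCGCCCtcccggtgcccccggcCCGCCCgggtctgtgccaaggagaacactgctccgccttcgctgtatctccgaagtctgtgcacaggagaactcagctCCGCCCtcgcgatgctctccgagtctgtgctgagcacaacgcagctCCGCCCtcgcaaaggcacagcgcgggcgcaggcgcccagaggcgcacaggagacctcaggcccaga
LINC00842: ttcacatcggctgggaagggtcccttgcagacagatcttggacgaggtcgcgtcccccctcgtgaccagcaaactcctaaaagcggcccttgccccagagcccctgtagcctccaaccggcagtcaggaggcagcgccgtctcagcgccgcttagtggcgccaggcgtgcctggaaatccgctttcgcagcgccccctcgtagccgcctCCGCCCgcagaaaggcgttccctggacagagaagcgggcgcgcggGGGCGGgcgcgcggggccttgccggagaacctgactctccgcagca
In these 4 regions the RefSeq start was at most 29 bases from the start of the counted transcript. The LINC02802 region held 4 matches to GGGCGG, the box read by Sp/KLF zinc-finger factors, the LINC00842 region held 2, and both were 68.3% G and C. The LINC02700 region held 1 match to CCAAT and 1 to ACAAAG, and the LINC01487 region held no match to the 7 motifs searched. Their observed-over-expected CpG ratios were 0.123 in LINC02700 and 0.130 in LINC01487, against 0.779 in LINC02802 and 0.889 in LINC00842. Over the called LINC genes without protein-coding overlap no such split was seen, with a median ratio of 0.309 in those higher in primed and 0.277 in those lower. For 4 other changed genes (LINC02641, LINC01844, LINC02745 and LINC01091) the RefSeq start lay 29371 to 124688 bases from the counted transcript, and those regions are not shown.

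Over all matched LINC promoters the median G and C content was 47.7%, against 58.3% over all 27305 promoters in the RefSeq table, and the median CpG ratio was 0.250 against 0.580. GGGCGG was found in 18.1% of LINC promoters and 44.6% of all. TATAAA, the TATA box, was in 16.3% against 11.95%, CCAAT in 36.2% against 35.7%, and CACGTG, the E-box, in 4.95% against 7.43%. ATGCAAAT, the octamer, was in 2.54% against 1.80%, ACAAAG, a core read by SOX and TCF factors, in 22.3% against 16%, and TGACTCA, the AP-1 site, in 7.69% against 4.92%. Among LINC genes without protein-coding overlap, GGGCGG was in 27.7% of the 184 promoters of genes higher in primed, in 30.6% of the 72 of genes lower in primed and in 13.8% of the 1042 of genes not tested. Genes with too few counts to test thus held the box less often than either called set in this table, and the called sets were close to each other. These are matches to letters and were not tested.

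Most LINC genes had few or no alignments. Of the 2254, 413 had no count in any library, 1841 had at least 1, and 637 had at least 10 counts in at least 2 libraries and were tested. Only 224 of the tested genes had a mean count of at least 50. The tested genes comprised 559 of the 2102 without protein-coding overlap and 78 of the 152 with it. The states were compared with edgeR's quasi-likelihood test (TMM, Benjamini-Hochberg adjustment over all 27633 genes tested, adjusted p under 0.05, two-sided).

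More LINC genes were higher in the primed than in the naïve libraries. Of the 559 tested without protein-coding overlap, 301 were higher in primed (53.9%) and 121 lower (21.6%), where 37.4% of all genes tested were higher and 32.6% lower. The share called in either direction, 75.5%, stood beside 70.0% over all genes. The median log2 fold change of all 637 tested LINC genes was 0.91, against 0.08 over all genes, 0.46 over 6691 other lncRNA genes and 0.04 over 15902 protein-coding genes. Of the other lncRNA genes 44.9% were higher in primed and 25.0% lower. Of the 184 with a mean count of at least 50 and no protein-coding overlap, 98 were higher and 54 lower (82.6% called), beside 32.4% and 39.7% (72.0%) of all genes with such counts. The CPM of the states did not overlap in 558 of the 637, beside 84.4% of all genes.

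The excess was there under each of the scalings run, but its size was not the same. With library sizes in place of TMM the median of all genes moved to 0.72 and that of LINC genes to 1.55. Under that scaling 67.7% of the 637 were higher and 13.3% lower, against 56.2% and 16.3% of all genes. With DESeq2 40.0% were higher and 18.1% lower, against 29.1% and 29.6% of all genes. A gene can pass the count filter through 1 state alone, and such genes are bound to differ. Of the 637, 166 reached 10 counts in both primed libraries and neither naïve library, and 43 did the reverse. Among the 344 with at least 10 counts in all 4 libraries, 160 were higher in primed (46.5%) and 82 lower (23.8%), with a median of 0.49, where 29.7% of all such genes were higher and 36.3% lower, with a median of -0.10.

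**Figure D1:**
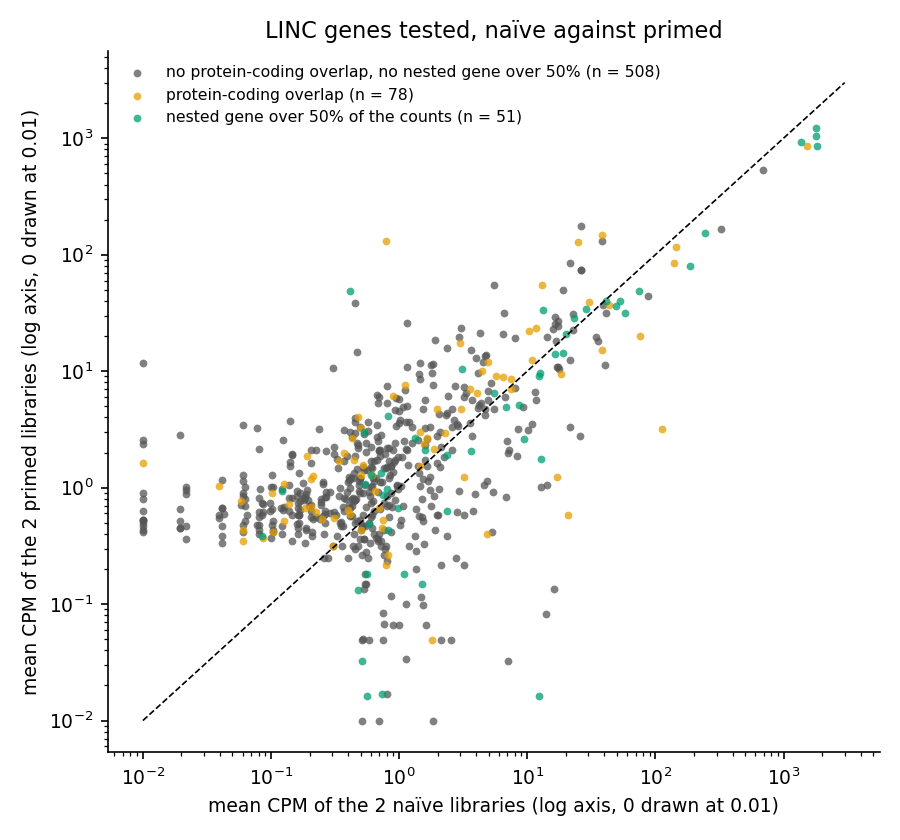
Mean CPM of the 637 tested LINC genes in the 2 naïve (x axis) and 2 primed (y axis) libraries, both on log axes, with 0 drawn at 0.01 and the dashed line at equal levels. Most points at low level lie above the line. Green points are genes whose counts lie mostly on another gene inside the span. Some of them lie along the line at its upper end, and others lie lower or far from it, as LINC02540 and LINC01764 do.

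A few LINC genes had counts in 1 state alone. Reads of 14 genes reached 10 counts in both primed libraries with none in either naïve library (2.20% of the 637 tested, against 1.28% of all other genes tested), and 3 showed the reverse (0.471% against 0.60%). After LINC01487, the primed-only genes with most counts were LINC01139 with 69 and 87 and LINC03051 with 60 and 82 in the primed libraries. The 3 naïve-only genes were LINC01793 with 42 and 48 counts, LINC02690 with 22 and 11 and LINC02016 with 11 and 14. A library with 0 counts allows up to 0.130 CPM (3 counts, counting error only). These 5 genes besides LINC01487 were named after their values were seen.

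The LINC genes that rose most in primed cells included loci silent or nearly so in the naïve libraries. They were taken among genes without protein-coding overlap, with a mean count of at least 50 and no overlap of the states in CPM, as the 12 with the highest log2 fold change. LINC01487 (chr3:155240952-155258745, 5 exons) was at 0 in both naïve libraries and had 360 and 342 counts in the primed. It was at least 94.4-fold higher in primed, with the naïve libraries set at 3 counts each, and its adjusted p was 1.24e-21. No other gene lay inside its span and no matching stretch of a highly counted gene was found there.

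LINC00698 (chr3:62950471-63125062), 75014 bases from CADPS on the other strand, had 12 and 10 counts in naïve and 1009 and 1312 in primed libraries. Its level was 0.456 ± 0.091 CPM in naïve and 38.5 ± 6.0 CPM in primed (SD, n = 2 each), a log2 fold change of 6.40 ± 0.25 (SE). CADPS, a gene of dense-core vesicle release, was itself higher by 3.65 on the log2 scale. The span holds the keratin pseudogene KRT8P35, but counts on it came to 1.20% of those on the LINC transcript, and KRT8, whose sequence matches there, was lower in primed by a log2 fold change of -2.36.

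LINC02540 (chr6:76521640-76593821) had 9 and 11 counts in naïve and 1524 and 1431 in primed, a log2 fold change of 6.89. An unnamed lncRNA gene inside its span, ENSG00000280511, took 92.1% of as many counts, so the signal is that of the nested gene as much as of LINC02540. LINC02700 (chr11:94638045-94652884), whose start region is printed above, had 10 and 13 counts in naïve and 483 and 387 in primed, 4.92 on the log2 scale. PIWIL4, an argonaute of the piRNA pathway 16624 bases away on the same strand, was higher by 1.60.

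LINC01405 (chr12:110936578-110959093) lies 13147 bases from MYL2, the ventricular myosin light chain, and had 24 and 32 counts in naïve and 739 and 835 in primed libraries, a log2 fold change of 4.50 ± 0.21. LINC02972 (chr12:8788274-8795789) was the most abundant of the 12 in primed cells, at 55.3 ± 8.7 CPM against 5.51 ± 1.24 CPM in naïve. Its counts were 107 and 163 against 1809 and 1508. The nearest protein-coding gene, RIMKLB, 5158 bases away, went the other way, with a log2 fold change of -1.59. LINC01876 (chr2:156011530-156254929), a lncRNA known from human neural progenitors, had 38 and 55 counts in naïve and 441 and 668 in primed. NR4A2, a nuclear receptor of dopaminergic neurons 69487 bases away, was lower in primed by a log2 fold change of -1.25.

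The other 5 genes were less abundant. LINC01844 had 5 and 10 counts in naïve and 311 and 328 in primed, and ARHGAP26, 9342 bases away on the same strand, was also higher, by 2.07 on the log2 scale. LINC01828, LINC02641 and LINC02955 had at most 5 counts in either naïve library and 86 to 133 in each primed library. For LINC01828, with 1 and 2 naïve counts, the ratio of primed to naïve was 55.5 with a 95% counting interval of 18.7 to 271. LINC03042 had 1 and 11 counts in naïve and 100 and 93 in primed, so that its naïve libraries lay far apart. Its log2 fold change of 3.68 was 2.88 without naïve replicate 1 and 6.07 without naïve replicate 2. LINC02641, with 0 and 4 naïve counts, went from 5.23 to 4.34 and 9.498 in the same way, and LINC02955 from 4.66 to 5.36 without naïve replicate 2. FGFR1, a receptor for bFGF, lies 42000 bases from LINC03042 and was higher by 2.44.

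The LINC genes that fell most in primed cells were well counted in both naïve libraries. LINC01764 (chr19:15827037-15835808) had 275 and 330 counts in naïve and 0 and 1 in primed. Its naïve-to-primed ratio was 748 with a 95% counting interval of 134 to 29610, and an unnamed miscellaneous RNA gene inside the span, ENSG00000273782, took 85.6% of as many counts. LINC00383 (chr13:69222324-69322190) had 170 and 175 counts in naïve and 0 and 2 in primed, a ratio of 213 with an interval of 58.6 to 1769. No other gene lay inside its span, and the nearest protein-coding gene, KLHL1, was 378404 bases away. With so few primed counts the log2 fold changes of LINC01764 and LINC00383, -9.19 and -7.55, were -8.38 and -6.67 without primed replicate 1 and -11.34 and -10.53 without primed replicate 2.

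LINC02864 (chr18:73154058-73264480) had 303 and 376 counts in naïve and 2 and 3 in primed, and LINC03046 (chr10:101701998-101730037) had 373 and 414 against 5 and 3. Their levels were 13.9 ± 1.1 and 16.2 ± 0.041 CPM in naïve (SD, n = 2), and their log2 fold changes were -7.31 ± 0.34 and -6.88 ± 0.31 (SE). FBXW4, an F-box protein 6699 bases from LINC03046, was lower by a log2 fold change of only -0.71. NETO1, 283095 bases from LINC02864, was higher in primed, by 9.39.

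LINC02745 (chr11:42068575-42163851) was the most abundant of the 12 in naïve cells, at 25.7 ± 2.2 CPM against 2.75 ± 0.48 CPM in primed, from 629 and 617 counts against 91 and 74. LINC01081 (chr16:86225580-86301303), known as a distal element of FOXF1 in lung, followed with 532 and 513 counts against 106 and 93. FOXF1, a forkhead factor of mesoderm 209224 bases away, had too few counts to test. LINC00842 (chr10:46398362-46453306) had 118 and 140 counts in naïve and 11 and 14 in primed, and ANXA8L1, an annexin gene 6578 bases away on its strand, was also lower, by a log2 fold change of -4.98.

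The remaining 5 genes kept at least 17 counts in each primed library. LINC02802 had 346 and 343 counts in naïve and 23 and 41 in primed, LINC02672 had 290 and 333 against 30 and 31, and LINC01091 had 142 and 192 against 23 and 27. LINC02275 had 331 and 282 against 52 and 53, with an unnamed lncRNA gene inside its span at 90.1% of its counts. LINC01763 had 86 and 96 against 17 and 21. The states did not overlap in CPM in any of the 24 genes, as the choice required. All 24 kept their call under each of the other scalings, filters and left-out libraries. The trophoblast markers stood high in the same naïve libraries, and which cells the naïve LINC RNAs came from was not tested.

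**Figure D2:**
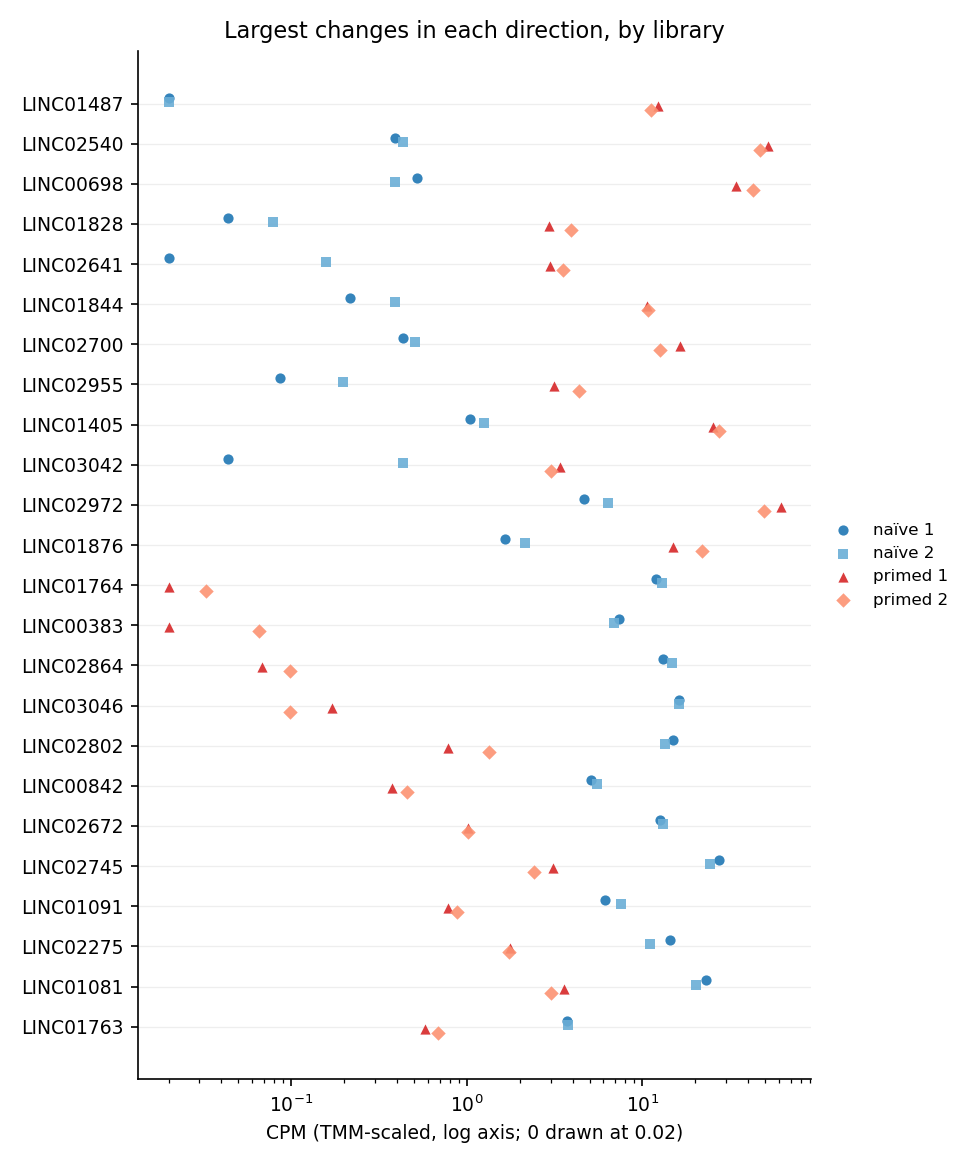
CPM (TMM-scaled, log axis, 0 drawn at 0.02) of the 12 LINC genes with the largest rise and the 12 with the largest fall in primed cells, with 1 symbol for each of the 4 libraries. The symbols of the 2 libraries of a state lie close together except where a library had under 12 counts, as for LINC03042 in naïve and LINC00383 in primed.

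Many LINC genes with high counts held another gene whose own count was nearly the same. An alignment was counted on every transcript whose span it overlapped, introns included, and at each place it aligned. Of the 20 LINC genes without protein-coding overlap and with a mean count of at least 1000, 11 held another annotated gene that took over 50% of as many counts. Genes of this kind carried 68.97% of all counts on LINC genes without protein-coding overlap. Of the 184 tested with a mean count of at least 50, 33 were of this kind, and the gene inside was a pseudogene in 22 and another lncRNA in 10.

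The highest LINC values in both states were those of spans that hold a ribosomal protein pseudogene. LINC02613 (chr2:38406527-38515640) had 45603 and 40730 counts in naïve and 38044 and 36130 in primed, and RPLP0P6, a processed pseudogene in its span, took 99.9% of as many. RPLP0 itself, the large-subunit stalk protein, had 45815, 40841, 38078 and 36147 counts in the same order. LINC01709 holds RPSAP19 (99.99% of as many counts), LINC02320 holds a pseudogene with a match to RPL26 (99.97%) and LINC02067 holds RPL23AP42 (as many counts). Per kb of exon, LINC02320 stood highest, at 4012 CPM in naïve and 1891 CPM in primed. Its exons are 454 bases in all, however, and counts were taken over its whole span, introns included. The counts on these LINC genes are nearly those of the ribosomal protein genes. The LINC transcript, the pseudogene and the ribosomal protein gene cannot be told apart in them.

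LINC00987 (chr12:9240003-9243052) had 17561, 15913, 16556 and 15672 counts and no annotated gene inside its span, yet the span holds a copy of PTMA, the gene of prothymosin alpha, over 525 bases at 90.3% identity. A coding stretch of 3 source genes is printed here beside the copy in the LINC span, to show how alike the letters are. Where single alignments lie was not examined. Each starts at the ATG of the source transcript, bases that differ are in capitals, and the copy is read along the source gene. The copies lie at chr2:38481851-38481970 (+ strand) in LINC02613, chr3:161429478-161429597 (- strand) in LINC02067 and chr12:9240212-9240331 (- strand) in LINC00987, in GRCh38.
RPLP0 transcript: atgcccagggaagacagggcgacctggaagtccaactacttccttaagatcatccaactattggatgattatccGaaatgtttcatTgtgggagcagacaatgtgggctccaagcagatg
LINC02613 span: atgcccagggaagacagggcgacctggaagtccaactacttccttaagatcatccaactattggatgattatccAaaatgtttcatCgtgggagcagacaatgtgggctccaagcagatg
RPL23A transcript: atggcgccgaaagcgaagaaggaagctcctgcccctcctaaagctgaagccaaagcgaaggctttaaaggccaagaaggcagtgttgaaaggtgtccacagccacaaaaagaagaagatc
LINC02067 span: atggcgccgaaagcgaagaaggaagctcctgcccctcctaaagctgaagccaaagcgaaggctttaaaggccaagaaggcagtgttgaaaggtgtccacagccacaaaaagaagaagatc
PTMA transcript: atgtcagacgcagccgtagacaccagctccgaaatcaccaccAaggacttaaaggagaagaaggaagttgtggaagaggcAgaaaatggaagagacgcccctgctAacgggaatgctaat
LINC00987 span: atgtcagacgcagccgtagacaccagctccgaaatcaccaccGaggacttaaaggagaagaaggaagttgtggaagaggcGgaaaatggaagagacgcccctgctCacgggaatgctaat
Of these 120 bases, 118 were the same in RPLP0 and LINC02613, 120 in RPL23A and LINC02067 and 117 in PTMA and LINC00987.

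LINC genes with such contents were more often lower than higher in primed with TMM and DESeq2. The reverse was seen with library sizes, where the shares of all genes shifted too. In 51 without protein-coding overlap a nested gene took over 50% of as many counts. Of these 51, 11 were higher in primed (21.6%) and 28 lower (54.9%), beside 37.4% and 32.6% of all genes tested. Their median log2 fold change was -0.44. In the 32 where the nested gene was a pseudogene, 3 were higher and 18 lower, with a median of -0.43. Among the 508 others, 290 were higher and 93 lower, with a median of 1.05. The difference between these sets was not tested. With DESeq2 7 of the 51 were higher (13.7%) and 24 lower (47.1%), beside 29.1% and 29.6% of all genes, and 1 and 16 of the 32. With library sizes in place of TMM the counts turned to 20 higher (39.2%) and 11 lower (21.6%) of the 51. They turned to 11 (34.4%) and 5 (15.6%) of the 32, beside 351 and 65 of the 508 others. Under that scaling 56.2% of all genes were higher and 16.3% lower. LINC02613 and LINC02067 then stood at 0.11 and 0.08 on the log2 scale in place of -0.53 and -0.56, and LINC00987, with no nested gene, at 0.27 in place of -0.37.

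A matching stretch of a highly counted protein-coding gene was found in 27 of the 184 spans searched. In the 17 of them with a nested gene over 50% of as many counts, 14 had the sign of the matched gene, and LINC02613 and RPLP0 were at -0.53 and -0.54, LINC02320 and RPL26 at -1.09 and -1.08, and LINC00886 and PA2G4 at -1.21 and -1.20. In the other 10 only LINC00987 had it. There LINC00698 and KRT8 were at 6.40 and -2.36, and LINC00937 and RPS3A at 2.96 and -0.52.

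**Figure D3:**
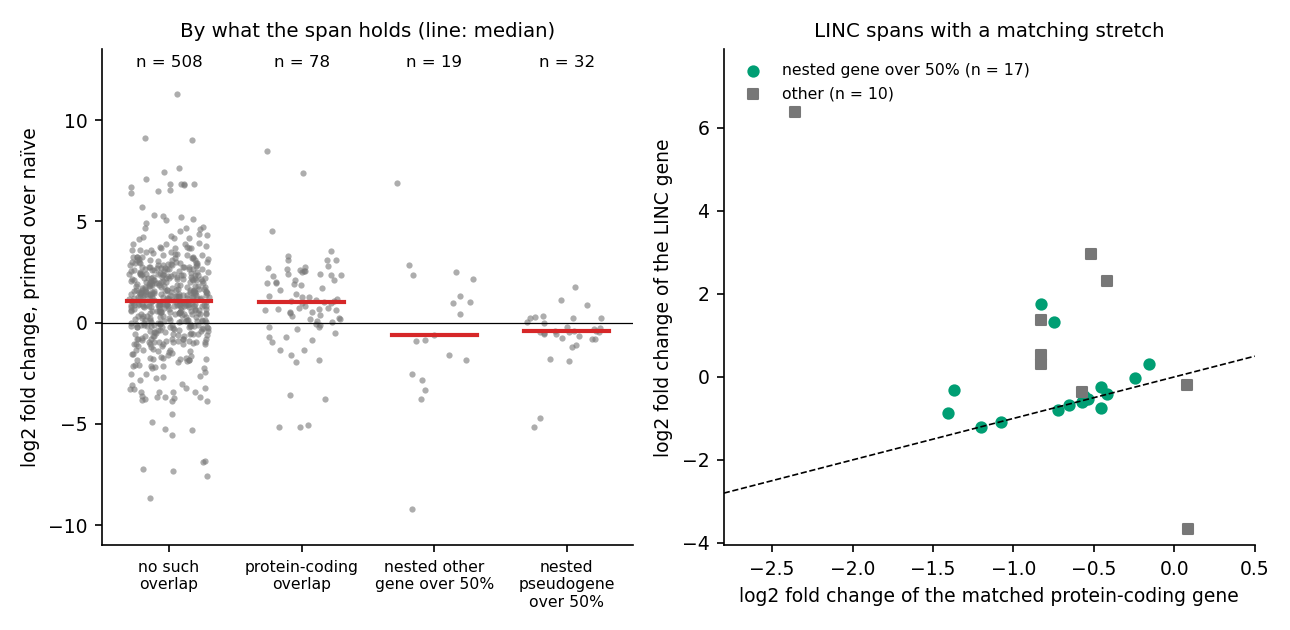
Left, log2 fold change (primed over naïve) of each tested LINC gene by what its span holds, with a red line at the median of the class. Right, log2 fold change of the 27 LINC genes with a matching stretch against that of the matched protein-coding gene, with a dashed line at equality; most green points, with a nested gene over 50% of as many counts, lie near the line and the grey squares mostly lie off it.

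With such genes set aside, the abundant LINC genes differed between the states. Those with most counts were named after their values were seen. LINC01356 (chr1:112820174-112850643) had 7431 and 8260 counts in naïve and 5176 and 4861 in primed libraries, at 323 ± 1.1 CPM and 167 ± 12 CPM (SD, n = 2), and was lower in primed by a log2 fold change of -0.95. LINC01194 (chr5:12574857-12804363) was the reverse, with 589 and 700 counts against 5077 and 5463, a log2 fold change of 2.73 ± 0.15. Per kb of exon it was among the 5 highest LINC genes in primed cells, at 324 CPM against 49.0 CPM in naïve. Its exons are 540 bases in all, however, and counts were taken over the whole span, where a nested lncRNA gene took 18.1% of as many.

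LINC02523 (chr6:125674353-125720218) had 913 and 949 counts in naïve and 3938 and 3885 in primed, LINC03077 on the X chromosome 503 and 546 against 2391 and 2708, and LINC01492 on chromosome 9 the opposite, 2049 and 2201 against 1267 and 1373. LINC02257 and LINC02474, which overlap each other on chromosome 1, had nearly the same counts, 615 and 608 in the first naïve library and 2395 and 2401 in the first primed library. Such counts are nearly those of a single signal counted on both. Of the tested LINC genes, 115 overlapped another LINC gene, so the counts of genes called are not counts of independent loci. LINC01001, with 1021, 871, 1186 and 1017 counts, had CPM that overlapped between the states.

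The 78 tested LINC genes that overlap a protein-coding gene had nearly that gene's counts in some pairs and not in others. Of the 78, 46 were higher in primed (59.0%) and 13 lower (16.7%), beside 37.4% and 32.6% of all genes tested. Their median log2 fold change was 1.01, beside 0.08 over all genes. In 71 pairs both genes were tested, and 51 pairs had the same sign. LINC02574 had 2658 and 2860 counts in naïve and 86 and 105 in primed. IFI6, an interferon-induced gene that it overlaps, had 2718 and 2927 against 101 and 114. LINC00571 and UFM1, the ubiquitin-fold modifier, were at -1.93 and -1.91 on the log2 scale, from 1867 and 1972 counts in the first naïve library. In the pairs with IFI6 and UFM1 the LINC value cannot be told apart from that of the gene it overlaps. LINC01013 and CCN2, a secreted target of YAP, were at 2.37 and 2.28. LINC01013 had 594 and 608 counts in naïve and 3968 and 3742 in primed, but CCN2 only 36 and 75 against 326 and 336. LINC01524 was at -5.14 while ZFP64, which it overlaps, was at 0.40, and LINC01989 was at -0.96 with ASIC2 at 1.24.

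LINC01829 stood out, with 19 and 19 counts in naïve and 3768 and 4190 in primed, a log2 fold change of 7.39 ± 0.22. ETAA1, a replication stress factor that it overlaps, had only 17 and 14 counts against 187 and 190, so most of the LINC01829 counts did not lie on the counted ETAA1 transcript. LINC01500 had 36423 and 38092 counts in naïve and 23136 and 28192 in primed, while DACT1, which it overlaps, had 7 to 25. In that span the pseudogene RPL31P4 took 99.9% of as many counts. LINC00174, with 3244 and 3517 counts against 2584 and 2495, likewise held SKP1P1 at 91.9%.

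LINC genes were also set beside the nearest protein-coding gene they do not overlap, since some lincRNAs act on or share a start region with a neighbour. Across 467 pairs with both genes tested, the log2 fold changes had a Spearman correlation of 0.159 (Pearson's 0.126), and 256 pairs (54.8%) had the same sign. The correlation was 0.206 for the 69 pairs under 5 kb apart, 0.238 for the 181 at 5 to 50 kb and 0.068 for the 217 farther away. These are correlations across genes in the same 4 libraries, some neighbours recur, and genes are not independent replicates. For the 71 overlapping pairs, which share alignments, it was 0.531, with 51 pairs (71.8%) of the same sign.

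Close neighbours moved together in some pairs and apart in others. LINC00862 and ZNF281, a zinc-finger factor 4235 bases away, rose by 2.42 and 1.39 on the log2 scale, and LINC00938 and ARID2, a chromatin remodeller subunit with a divergent start, rose by 0.88 and 1.10. LINC01772 rose by 3.05 while NECAP2, 870 bases away on the same strand, was at -1.39. LINC02340, which starts 74 bases from the ribosomal protein gene RPL21, rose by 2.36 with RPL21 at -0.45. Of the 27 divergent pairs under 5 kb, 13 had the same sign (48.1%), and of the 21 in which the LINC gene lay downstream on the same strand, 13 did (61.9%). These pairs were named after their values were seen.

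**Figure D4:**
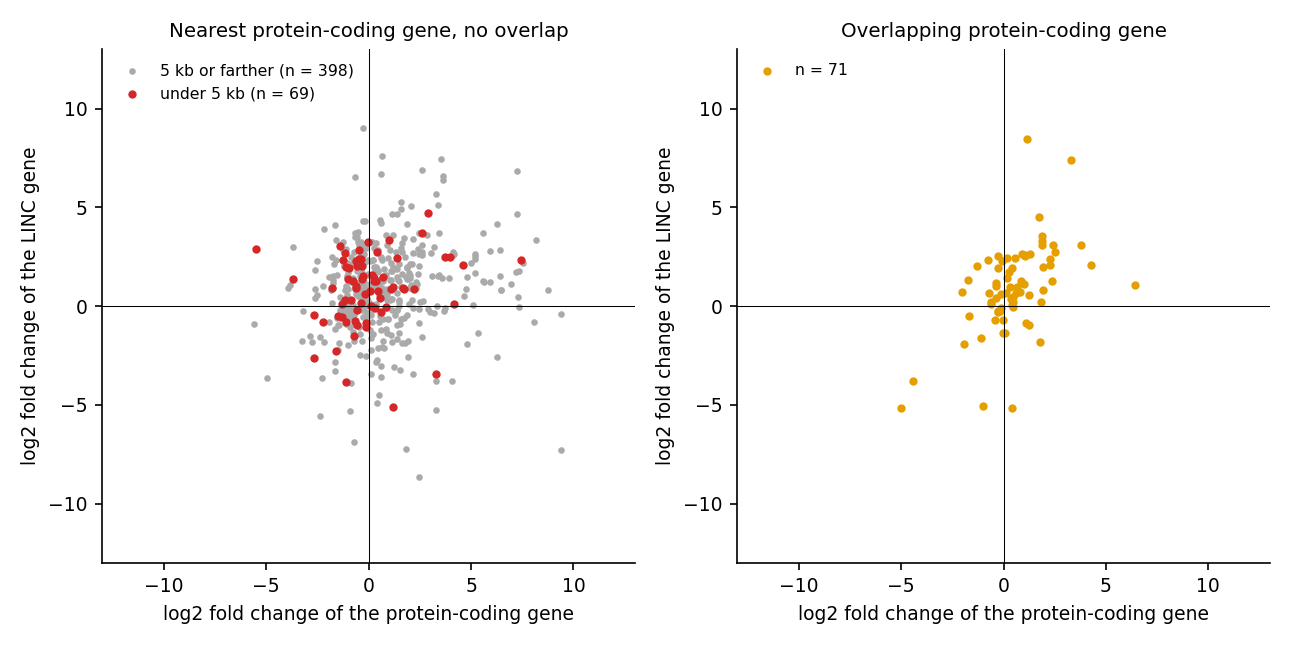
Log2 fold change (primed over naïve) of LINC genes against that of the nearest protein-coding gene without overlap (left, 467 pairs, the 69 under 5 kb in red) and of the protein-coding gene overlapped most (right, 71 pairs). The left cloud shows little slope in either colour, and the right one rises from lower left to upper right.

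Of 24 LINC genes with a described place or role, 22 had a transcript in the files under that symbol and 16 were tested. Of these 16, 12 were higher in primed (75%) and 3 lower (18.8%). The shares were 54.5% and 21.0% over all tested LINC genes and 37.4% and 32.6% over all genes tested. Several of the described genes were near 0 in both states. LINC00261, beside FOXA2 and known from definitive endoderm, had no count in naïve and 4 and 5 in primed. LINC01833, beside the eye and forebrain factor SIX3, had 0, 0, 2 and 2. LINC01116, LINC01133 and LINC00839, described in tumours, had at most 7 counts in any library, and these genes were too low to test.

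LINC00461, the neural host gene of MIR9-2, had 16 and 22 counts in naïve and 7 and 11 in primed. Its log2 fold change of -1.37 (adjusted p 0.00636) was not called with library sizes (adjusted p 0.138), with DESeq2 (0.0883) or without primed replicate 1 (0.0849). LINC00632, the host transcript of the circular RNA CDR1as, had 256 and 306 counts in naïve and 205 and 191 in primed, and its fall of -0.81 on the log2 scale was not called with library sizes (adjusted p 0.392). CDR1, annotated inside it, took 27.6% of as many counts. LINC00511, a lncRNA of many carcinomas, was lower in primed with 177 and 171 counts against 59 and 68.

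The 12 that rose included LINC01194, given above, and LINC00662 with 43 and 46 counts in naïve and 345 and 353 in primed (2.66 on the log2 scale). LINC01108 had 16 and 17 against 162 and 156 (2.95). LINC00467, LINC00630 and LINC00205 rose by 1.44, 0.91 and 2.27, and LINC00342 by 3.68 from 1 and 2 counts. LINC00665 rose by 0.42, from 529 and 586 counts to 888 and 957, and its adjusted p of 0.0122 rose above 0.05 when naïve replicate 1 (0.0532), naïve replicate 2 (0.0530) or primed replicate 2 (0.0580) was left out.

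LINC00667, LINC00294, LINC00941 and LINC00472 rose by 0.96, 2.65, 4.50 and 2.62, and each overlaps a protein-coding gene, ZBTB14, CSTF3 and TCP11L1, CAPRIN2 and OGFRL1 in that order. LINC00941 had 0 and 2 counts in naïve and 32 and 30 in primed, so its size is loose. The ratio of primed to naïve was 25.1 with a 95% counting interval of 6.65 to 212, and the log2 fold change was 3.64 without naïve replicate 1 and 7.84 without naïve replicate 2. LINC00649, which overlaps the ATP synthase gene ATP5PO, had 3565, 3424, 3518 and 3537 counts, and its direction depended on scaling. It was at -0.30 (adjusted p 0.0584) with TMM, -0.35 (0.0271) with DESeq2 and 0.34 (0.0190) with library sizes.

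**Figure D5:**
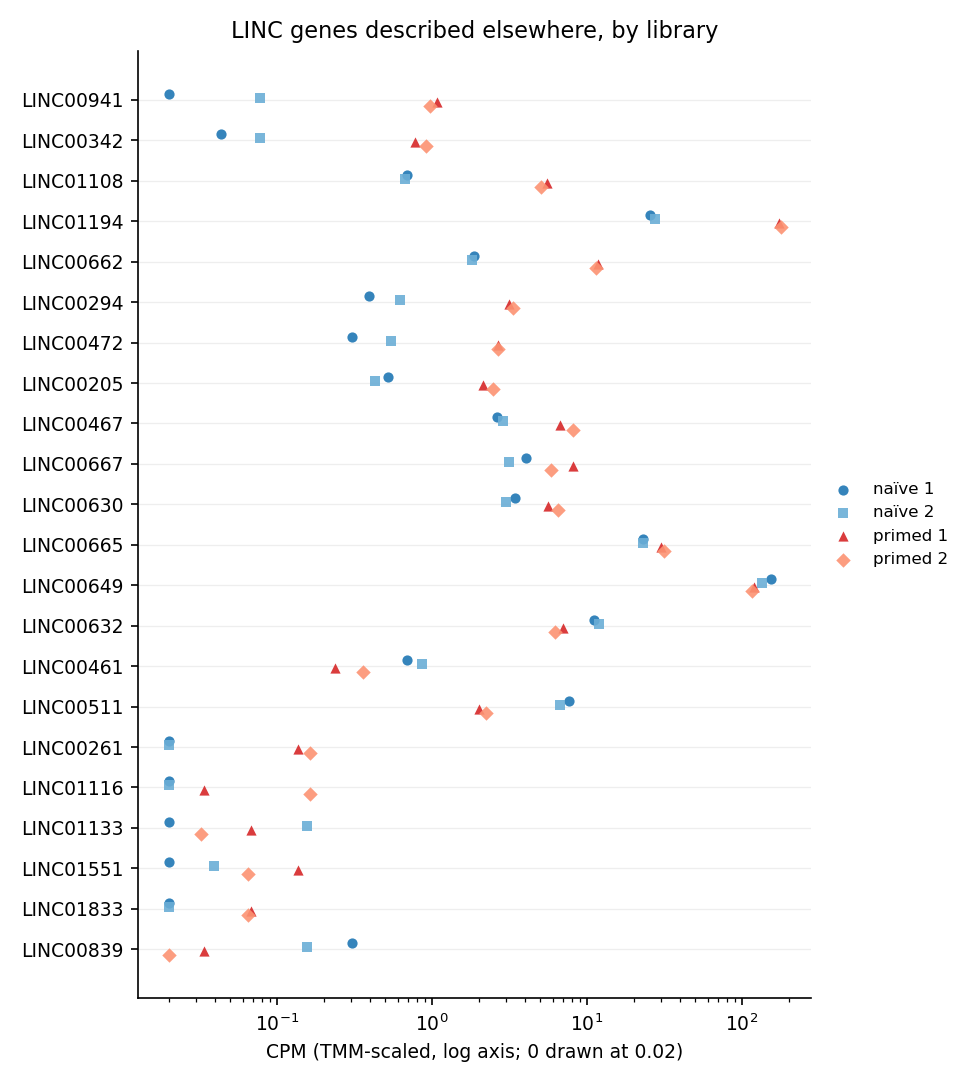
CPM (TMM-scaled, log axis, 0 drawn at 0.02) of the 22 described LINC genes in each of the 4 libraries, ordered by log2 fold change with the 6 genes too low to test at the bottom. Triangles and diamonds (primed) lie to the right of circles and squares (naïve) in the upper rows. Among the tested genes they lie to the left in the rows of LINC00649, LINC00632, LINC00461 and LINC00511.

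LINC genes that hold a small RNA gene were mostly higher in primed. Of 41 whose span holds an annotated microRNA or snoRNA gene, 28 were tested, and 20 were higher in primed (71.4%) and 6 lower (21.4%). Over all 637 tested LINC genes the shares were 54.5% and 21.0%, and over all genes tested 37.4% and 32.6%. For the 16 tested with a microRNA gene the counts were 13 and 2, with a median log2 fold change of 2.10. For the 13 with a snoRNA gene they were 8 (61.5%) and 4. With DESeq2 they were 13 and 1 for the microRNA hosts and 4 and 2 for the snoRNA hosts. LINC01618 had the most counts, 980 and 885 in naïve and 4671 and 4282 in primed, but DANCR, a lncRNA described as an inhibitor of differentiation that lies inside it with SNORA26 and MIR4449, took 86.0% of as many.

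LINC00472 holds MIR30A and MIR30C2 and LINC00513 holds MIR29A and MIR29B1, both known microRNA hosts. LINC00513 had 9 and 18 counts in naïve and 67 and 77 in primed, a log2 fold change of 2.10. LINC03006, which holds SNORA22 and SNORA15B-2, had 371 and 395 against 644 and 751. LINC01013 and LINC01090 each hold a microRNA gene (MIR548AJ1 and MIR561) and overlap CCN2 and GULP1. Counts over a host span say nothing of the level of the mature small RNA, which was not measured here.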

How the data were processed

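Nanopore cDNA libraries of naïve and primed H1 hESCs (2 each) were analysed from the deposited raw counts per transcript. The authors aligned reads to GRCh38 with minimap2 and counted alignments, per the file headers, with featureCounts 2.0.0 on Ensembl 105 over whole transcript spans, without strand, for every overlapping transcript and at every place aligned. LINC genes were therefore counted with whatever else lies in their spans. Of 244825 transcripts, 242542 were matched by identifier to GENCODE 44, 97.9% with the same coordinates, and the 2283 others (1.0% of the counts) were left out of gene values.

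The test took the 27633 genes that reached 10 counts in 2 or more libraries, with edgeR 4.0.16 in R 4.3.3 (TMM, state as the only term). DESeq2 1.42.0, library sizes, other filters, a replicate block, summed transcripts, stricter overlap rules and left-out libraries were the alternatives. With a library left out the same genes were tested, and the lone library of a state is assumed to vary like the other state. The fits were tested on simulated counts. TMM factors were 0.780 and 0.824 in naïve and 1.25 and 1.24 in primed. Counts limit precision at low levels, and intervals (exact, 95%) and floors of 3 counts cover counting error only, since reads carried no molecular identifiers.

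Nested genes were annotated genes inside the counted span, with their own count as a percent of that of the LINC gene. Matching stretches were found with minimap2 2.31 for 184 spans (2086 transcripts of protein-coding genes whose mean count was 1000 or more, at least 300 bases, 85% identity, 40% of the transcript). 1 transcript that matched more than 5 spans was left out. Printed copies were aligned with blastn 2.17.0.

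Genes named were the 12 highest and 12 lowest in log2 fold change among called genes without protein-coding overlap, a mean count of 50 or more and no overlap of the states, the 5 highest per kb of exon in each state, a list of 24 described genes, up to 4 small RNA hosts and the 3 overlapping genes with most counts. Others were named after their values were seen. The genes and lists were chosen with earlier results of these data known.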

Additional observations from a re-analysis of the deposited data

How the results depend on the processing

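Of 507 values for 51 named LINC genes under the alternatives, 487 kept their direction and side of the threshold, 13 lost and 3 gained a call, and 4 reversed, all with library sizes in place of TMM (LINC02613 0.11, LINC02067 0.083, LINC00987 0.27 and LINC00649 0.34 on the log2 scale). All 24 genes with the largest changes kept their call throughout. Of LINC genes without protein-coding overlap, 422 were called (301 higher and 121 lower in primed). Fewer genes were tested under 2 stricter rules. With a minimum of 50 counts 191 of 227 tested were called (137 and 54), and without overlap with any gene 149 of 192 (113 and 36). Library sizes gave 447 with 76 lower, and DESeq2 324 (223 and 101). With a library left out, 364 to 388 were called, 259 to 276 higher and 105 to 112 lower. Of the 78 overlapping LINC genes tested, 59 were called (46 higher and 13 lower). Library sizes gave 69 (60 and 9) and DESeq2 46 (32 and 14). With a minimum of 50 counts 41 were tested and 34 called (24 higher).

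The median log2 fold change, 0.91, was 1.55 with library sizes, 0.81 without a filter, 0.98 with a minimum of 50 counts, 0.84 with summed transcripts, 0.89 to 1.01 with a library left out and, as an alternative chosen after seeing the data, 1.05 without genes whose counts lie mostly on a nested gene. The correlation with neighbours, 0.159, was 0.142 with a minimum of 50 counts. Without genes whose counts lie mostly on a nested gene it was 0.177 (427 pairs). In the 118 of those pairs with a LINC mean count of at least 50 it was 0.093, and 50.9% had the same sign. The cause of these shifts was not tested.

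The replicate numbers gave no sign of pairing the libraries (correlation of deviations 0.071 over all genes, 2 pairs). With the replicate block, the calls came to 419, with 299 higher and 120 lower, at a median of 0.93. Low counts limit what can be said of the 1617 LINC genes that were not tested.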
